A study of Homo sapiens with 12 samples.

Results

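Accessible chromatin sites that lie close together in T-47D breast cancer cells were compared between palbociclib and vehicle. Peaks of the shared peak table were chained along each chromosome wherever the next peak began no more than 12500 bases after the end of the one before, and every peak in a chain of at least 5 was kept. This gave 2098 of 38121 peaks, in 359 of 27515 chains. A chain of at least 5 peaks is called a cluster here, a peak in a cluster is called clustered, and all remaining peaks are called other peaks. The grouping used peak positions and no count values.

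T-47D is an established luminal, oestrogen receptor positive cell line grown from a pleural effusion of a breast carcinoma. Cells received 1 µM palbociclib for 24 h, or DMSO at 0.1%, and transposase-accessible chromatin was sequenced (ATAC-seq) from 50000 cells per replicate, with 3 biological replicates per treatment. Polyadenylated RNA was sequenced from separate samples of cells given 1 µM palbociclib or DMSO for 24 h, also 3 per treatment. The percentage of DMSO is labelled for ATAC only. All cells come from this single line, with no second line or genotype.

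Palbociclib inhibits CDK4 and CDK6, the kinases that cyclin D uses to phosphorylate the retinoblastoma protein. Unphosphorylated retinoblastoma protein holds back E2F factors, which switch on genes of DNA replication and mitosis. ATAC-seq marks DNA that a transposase can reach, mostly promoters and enhancers. Dense runs of such sites often cover enhancer clusters near genes that define a cell type, and in gene-rich DNA they can also be rows of neighbouring promoters. Peak spacing alone does not separate these, and no histone mark was measured here.

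Library depth over peaks ran from 12830062 to 18250496 counts. Pairs of libraries within a treatment had a Pearson r of at least 0.984 across peaks, and pairs across treatments at most 0.981. In RNA, all 8 luminal markers searched, among them KRT8, GATA3 and ESR1, were above 1 FPKM (fragments scaled to transcript length and library size) in each library. Summed levels of 3 listed basal markers were 9.33 to 9.79 FPKM in DMSO and 8.82 to 9.44 FPKM with palbociclib, almost all from ACTA2. The 3 listed fibroblast markers summed to 23.8 to 25.1 FPKM in DMSO and 24.6 to 26.8 FPKM with palbociclib, nearly all from COL1A1. Immune markers summed to at most 0.174 FPKM, and the 3 endothelial markers had no row.

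Promoters are the members for which sequence can be shown: 265 RefSeq windows, each reaching from 250 bases before to 50 after a gene start, lay wholly inside clustered peaks. The 7 below were chosen after the values were seen. The first 5 belong to genes of replication or division whose clustered promoter peak fell with palbociclib; ADM is a gene whose peak fell while its RNA rose, and EDN1 starts in a cluster that rose. Each is the 250 bases before the start on build GRCh38.p14, written 5′ to 3′ along the gene. Capitals mark E2F sites (TTCCCGC or TTGGCGC), the CHR element of mitotic promoters (TTTGAA) and the CCAAT box, on either strand. E2F2, an E2F factor itself, is at chr1:23531234-23531483, minus strand. CDCA5, the cohesin regulator sororin, is at chr11:65084041-65084290, minus strand. TOP2A, the topoisomerase that untangles mitotic DNA, is at chr17:40417897-40418146, minus strand. RNASEH2A, a subunit of the enzyme that removes ribonucleotides from DNA, is at chr19:12806334-12806583, plus strand. CDC25B, a phosphatase that activates CDK1 at entry into mitosis, is at chr20:3796060-3796309, plus strand. ADM, which encodes the peptide adrenomedullin, is at chr11:10304823-10305072, plus strand. EDN1, which encodes endothelin 1, is at chr6:12290111-12290360, plus strand.
E2F2: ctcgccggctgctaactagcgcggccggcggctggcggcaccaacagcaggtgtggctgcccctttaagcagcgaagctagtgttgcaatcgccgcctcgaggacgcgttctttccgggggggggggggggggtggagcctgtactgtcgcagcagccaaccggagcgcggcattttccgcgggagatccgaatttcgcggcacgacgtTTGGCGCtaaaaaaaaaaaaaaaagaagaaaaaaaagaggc
CDCA5: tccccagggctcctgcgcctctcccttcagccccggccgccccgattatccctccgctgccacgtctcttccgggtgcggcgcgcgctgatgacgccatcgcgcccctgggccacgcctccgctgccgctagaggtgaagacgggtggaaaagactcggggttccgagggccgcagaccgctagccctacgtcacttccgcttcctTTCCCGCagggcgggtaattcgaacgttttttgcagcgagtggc
TOP2A: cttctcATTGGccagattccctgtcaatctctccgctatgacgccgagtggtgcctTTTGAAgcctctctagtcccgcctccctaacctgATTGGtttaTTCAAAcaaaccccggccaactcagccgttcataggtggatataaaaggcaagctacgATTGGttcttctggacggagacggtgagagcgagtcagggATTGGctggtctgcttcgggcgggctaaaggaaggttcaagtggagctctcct
RNASEH2A: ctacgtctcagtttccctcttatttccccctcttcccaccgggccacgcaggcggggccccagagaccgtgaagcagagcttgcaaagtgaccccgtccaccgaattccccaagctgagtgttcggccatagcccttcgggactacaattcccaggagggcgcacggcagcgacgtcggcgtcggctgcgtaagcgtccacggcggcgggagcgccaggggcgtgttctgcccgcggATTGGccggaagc
CDC25B: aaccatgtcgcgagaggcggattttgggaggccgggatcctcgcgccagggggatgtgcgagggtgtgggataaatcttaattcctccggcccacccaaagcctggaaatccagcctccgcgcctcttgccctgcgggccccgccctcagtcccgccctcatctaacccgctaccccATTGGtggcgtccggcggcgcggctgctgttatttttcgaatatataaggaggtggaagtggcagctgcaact
ADM: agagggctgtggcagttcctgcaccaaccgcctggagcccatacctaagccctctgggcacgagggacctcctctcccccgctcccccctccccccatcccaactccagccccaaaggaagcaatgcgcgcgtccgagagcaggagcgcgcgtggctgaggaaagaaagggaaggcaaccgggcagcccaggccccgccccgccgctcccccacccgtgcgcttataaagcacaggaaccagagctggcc
EDN1: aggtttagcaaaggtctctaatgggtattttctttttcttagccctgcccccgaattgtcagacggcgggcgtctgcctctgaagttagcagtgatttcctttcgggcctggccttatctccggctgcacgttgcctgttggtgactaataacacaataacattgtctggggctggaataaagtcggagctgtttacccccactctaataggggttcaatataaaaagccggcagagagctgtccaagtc

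An E2F match ended 35 bases before the start in E2F2 and 38 bases before it in CDCA5. The TOP2A promoter held 4 CCAAT boxes and 2 CHR elements, and RNASEH2A and CDC25B held 1 CCAAT box each. Over the whole 300 base window, E2F letters occurred in 16 of 48 windows (33.3%) inside clustered peaks called lower and in 28 of 216 (13.0%) inside clustered peaks that were not called. The share was 14.9% of 5748 windows inside any peak and 9.22% of all 34943 windows. Counted per peak, because neighbouring starts share peaks, E2F letters were in 14 of 40 lower peaks (35.0%) and in 26 of 178 not called (14.6%). Among genes of the lower windows that had an RNA test, RNA was lower for 5 and higher for 1 of 14 with E2F letters (median change -0.07). Of the 24 without E2F letters, RNA was lower for 14 and higher for 7 (median -0.18). Over all 13004 tested genes with a listed start, 25.3% were lower and 22.1% higher. The CCAAT box was in 37.5% of windows of either kind, and CHR in 12.5% of the lower and 6.48% of the others. Of the other motifs, ETS (CCGGAAG) was in 22.9% of lower and 22.2% of not called windows, and AP-1 (TGACTCA) in 4.17% and 3.70%. Forkhead (TGTTTAC) was in 6.25% and 4.17%, the GATA factor motif (AGATAA) in 4.17% and 1.39%, and the nuclear receptor site AGGTCA in 6.25% and 8.80%. TFAP2 letters (GCC and GGC with 3 bases between) were in 43.8% and 36.6%, and CTCF core letters (AGGGGGC or AGGTGGC) in 16.7% and 31.0%. Among all 34943 windows these shares were 10.2% for ETS, 4.96% for AP-1, 3.42% for forkhead, 10.4% for GATA, 13.8% for AGGTCA, 23.2% for TFAP2 and 20.0% for CTCF. Grainyhead letters (AAC and GTT with 2 bases between) were in 2.08% of lower, 0.463% of not called and 3.53% of all windows. The inverted pair of GGTCA with 3 bases between was in no lower or not called window and in 0.0572% of all windows. Both strands were searched and matches of different motifs may overlap. These shares describe letters in a window and do not show binding. GC content was alike, with medians of 67.5% and 67.0%. Promoter windows of chromosome 8, which holds 57 clustered peaks, were not analysed here.

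Clusters were mostly small. Of the 359, 191 held 5 peaks, 94 held 6, 39 held 7 and 35 held 8 or more, up to 14 in the cluster over HAPLN2, BCAN and NES on chromosome 1. They spanned 5.12 to 80.9 kb, with a median of 29.5 kb. Clustered peaks were no longer than others (median 608 against 631 bases), but carried more reads: the median of mean CPM (counts scaled by library size) was 24.8 against 13.3. Within 1 kb of a listed gene start lay 20.4% of clustered and 18.9% of other peaks. Clustered peaks were nearer to starts, at a median distance of 7990 against 18550 bases, and 59.9% had their middle inside a gene against 62.0%. Of the clusters, 261 held a listed gene start and 121 had no peak within 1 kb of one. The share of peaks that were clustered was 11.7% on chromosome 19, 10.7% on 16, 9.77% on 17 and 9.71% on 20. It was 0.923% on chromosome 2 and 0.390% on chromosome 4, and chromosome X had 855 peaks and no cluster.

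Clustered peaks were called lower with palbociclib more often than higher. By edgeR's quasi-likelihood test at a Benjamini-Hochberg adjusted p under 0.05 over all peaks, 283 of 2098 (13.5%) were lower with palbociclib and 88 (4.19%) were higher. Across all 38121 peaks, 6.46% were lower and 5.41% were higher. Lower calls were thus 76.3% of the calls among clustered peaks and 54.5% among all peaks. Changes were small: the median log2 change was -0.06 for clustered peaks and 0.004 for all peaks, and 4 clustered peaks were called with a fall of at least 1 on the log2 scale, against no rise of that size. Counts of changes of that size over all peaks are not given, so these are not set against a background. In bulk libraries, fewer cells with an open site and less opening per cell cannot be told apart. Counts are relative within each library and come without a DNA input, so DNA copy at these sites was not measured. With an offset smoothed on peak abundance the split was 121 higher and 235 lower, which is 66.0% lower against 54.0% for all peaks. DESeq2 called 49 higher and 172 lower, and without the library of DMSO replicate 3 edgeR called 63 higher and 178 lower. Leaving out DMSO replicate 1 gave 51 higher and leaving out palbociclib replicate 1 gave 54. For DESeq2 and the runs with a library left out, shares over all peaks are not given. Those counts show only the direction among clustered peaks.

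The share called lower was greater in longer chains. It was 4.70% of peaks that stood alone, 6.84% in pairs, 9.47% in chains of 3 or 4, 10.8% in chains of 5 or 6, 20.0% in chains of 7 to 9 and 23.9% in chains of 10 or more. Chains of 10 or more were few, and peaks of the same chain are not independent, so that last share rests on few loci. The share called higher stayed between 3.46% and 5.74%. Around the threshold the step was small: of 1956 peaks in chains of 4, 8.84% were lower and 5.27% higher, and of 955 peaks in chains of 5, 8.59% were lower and 3.87% higher. Peak abundance and gene density move with chain length, and their part in this gradient was not tested apart from the strata given next.

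**Figure D1:**
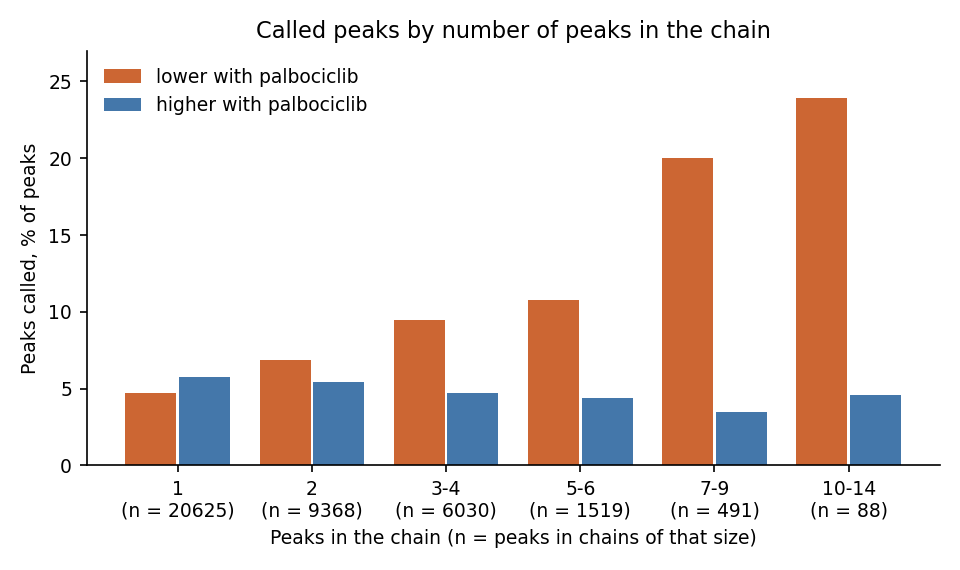
Percent of peaks called lower (orange) or higher (blue) with palbociclib by edgeR, by the number of peaks in the chain; n is the number of peaks in chains of that size. Lower calls go from 4.70% of single peaks to 23.9% of peaks in chains of 10 to 14, while higher calls stay between 3.46% and 5.74%.

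Promoters and distal peaks of clusters both leaned down. At gene starts, 81 of 429 clustered peaks (18.9%) were lower and 9 were higher (2.10%), where 11.4% and 1.78% of all 7227 peaks at starts were called. Away from starts, 202 of 1669 clustered peaks (12.1%) were lower and 79 (4.73%) higher, where all 30894 peaks away from starts had 5.31% lower and 6.25% higher. Other peaks away from starts had more rises than falls, with lower calls at 43.7% of calls, and clustered ones the reverse, at 71.9%. In terciles of mean count, lower calls made up 61.5%, 70.8% and 79.7% of calls among clustered peaks from the lowest to the highest, and 30.3%, 45.1% and 69.2% among other peaks. The most abundant peak of each cluster was lower in 53 of 359 cases and higher in 20. Its weaker neighbours were lower in 230 of 1739 and higher in 68, so the falls were not limited to the leading peak. The outermost peaks of a cluster were lower in 11.6% of 718 cases and the inner ones in 14.5% of 1380.

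Each library was then reduced to a single value, the median log2 CPM of clustered peaks minus that of other peaks, relative to the DMSO mean of each peak. DMSO libraries gave -0.02, -0.003 and 0.02 and palbociclib libraries -0.05, -0.05 and -0.08. All 3 palbociclib libraries lay below all 3 DMSO libraries, and the means differed by -0.06 (two-sided exact permutation test, p = 0.1, the smallest that 3 against 3 libraries can give). The difference was -0.09, -0.07 and -0.02 in the lowest, middle and highest tercile of mean count, with exact p of 0.1, 0.1 and 0.2. In the highest tercile 1 DMSO library lay among the palbociclib libraries. At starts the difference was -0.03 and away from starts -0.07, each with an exact permutation p of 0.1. Clustered peaks held 8.42%, 8.50% and 8.57% of all peak counts in the DMSO libraries and 8.31%, 8.34% and 8.20% with palbociclib. Again the treatments did not overlap (difference -0.214 percentage points, exact permutation p = 0.1). By chromosome, the clustered median lay below the other median on 20 of 22 chromosomes with clusters, the exceptions being 13, with 10 clustered peaks, and 22. Other peaks also had medians below 0 on chromosomes 19, 16, 17 and 20, where the share of clustered peaks was largest. Those were -0.055, -0.028, -0.021 and -0.011, against -0.072, -0.11, -0.075 and -0.099 for clustered peaks. On chromosomes 22, 1 and X the median of other peaks was below 0 as well, at -0.035, -0.0026 and -0.0059. Clustered peaks made up 6.55% of peaks on chromosome 22 and 6.3% on chromosome 1, and X had none. The highest median of other peaks was 0.047, on chromosome 4.

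**Figure D2:**
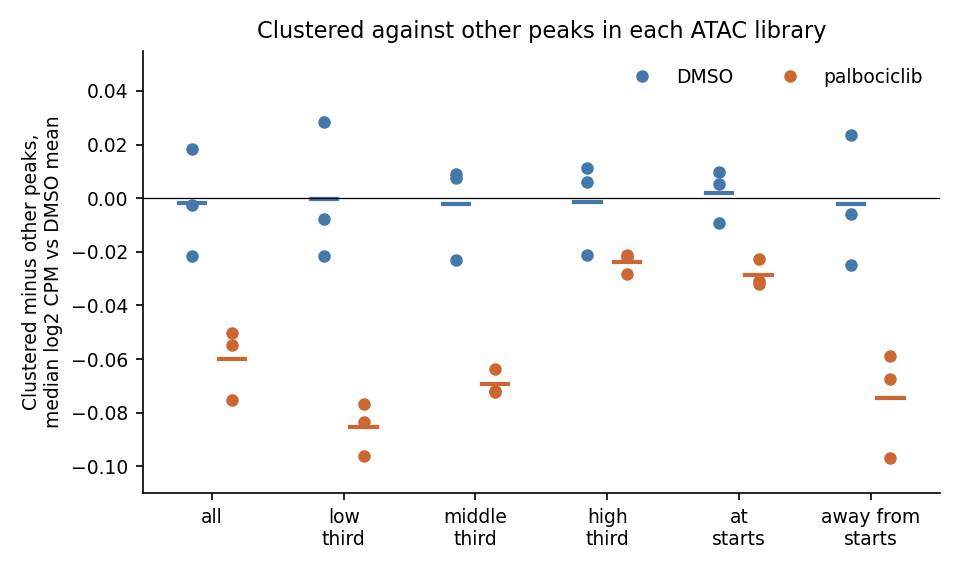
Median log2 CPM of clustered peaks minus that of other peaks in each ATAC library, relative to the DMSO mean, for all peaks, for terciles of mean count and for peaks at or away from gene starts. Points are libraries (3 DMSO, 3 palbociclib) and bars are group means; palbociclib lies below DMSO without overlap in each column except the highest tercile.

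Counts were also summed over whole clusters. Of 359 clusters, 86 (24.0%) were lower with palbociclib and 11 (3.06%) were higher by edgeR's quasi-likelihood test, fitted on all chains. Among all 27515 chains, mostly single peaks, 6.65% were lower and 5.27% higher. Summed counts are larger, which makes small changes easier to call, so these shares are not set against single peaks as sizes of effect. Treatments did not overlap in 170 clusters (47.4%), against 28.5% of all chains. The same limit of summed counts applies to these shares, which are not compared as sizes of effect. Log2 changes of lower clusters ran from -0.50 to -0.105 with a median of -0.16, and those of higher clusters from 0.115 to 0.26 with a median of 0.19. The split depended on scaling. Library totals gave 24 higher and 65 lower, an offset smoothed on the abundance of whole chains gave 39 higher and 42 lower, and an offset smoothed on the abundance of single peaks, added after the data were seen, gave 22 higher and 70 lower. Without the library of DMSO replicate 3 there were 42 lower clusters, and without palbociclib replicate 1 there were 56. Shares over all chains are not given for these alternative runs, so the counts show only the direction among clusters.

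A cluster that fell as a whole did not always fall throughout. In 28 of the 86 lower clusters every peak had a negative change, and 5 had no peak called alone. A gene start lay in 69 of the 86, while 20 had no peak within 1 kb of a start. Lower and higher calls occurred together in 24 clusters, 129 clusters held a called peak without being called as a whole, and 138 held none. Against the rest of its own cluster, 124 of 2098 peaks differed (edgeR diffSpliceDGE, adjusted p under 0.05), 57 above and 67 below, which is 5.91% where 2.81% of 17496 peaks in chains of any length above 1 did. These 124 peaks lay in 93 clusters. Clustered peaks carried more reads than other peaks and were set against more neighbours, which makes differences easier to call. The shares of 5.91% and 2.81% are therefore not compared as sizes of effect. Without DMSO replicate 1, DMSO replicate 3 or palbociclib replicate 1, the counts were 32 and 43, 23 and 34, and 29 and 32 peaks above and below.

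The largest fall was in the cluster inside NINJ2, which encodes the adhesion protein ninjurin 2, at chr12:591149-614912. Its 5 peaks summed to 132, 142 and 148 CPM in DMSO and to 101, 97.0 and 101 CPM with palbociclib. The treatments did not overlap, and the log2 change was -0.50 ± 0.049 (SE; edgeR adjusted p = 1.23e-11). A single peak inside the gene, at chr12:597696-598600, carried most of it, going from 69.8, 72.3 and 82.8 CPM to 42.9, 42.3 and 40.5 CPM (log2 change -0.84 ± 0.066). The next peak fell by 0.67 on the log2 scale, whereas the other 3 peaks were not called, with changes of 0.00036, 0.04 and -0.16.

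BFSP2, a lens filament gene overlapped by the antisense gene BFSP2-AS1, held the next, at chr3:133428204-133459920. Its 7 peaks summed to 352, 363 and 373 CPM in DMSO and to 295, 304 and 253 CPM with palbociclib, where replicate 3 was lowest. The log2 change was -0.35 ± 0.044 (edgeR adjusted p = 1.64e-08). Here 6 of the 7 peaks were called lower and the last had a change of -0.15, so the cluster moved as a block.

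RTN4RL1, a receptor of the Nogo family, held a cluster of 6 peaks at chr17:1996993-2024491 with 195, 219 and 217 CPM in DMSO and 171, 176 and 154 CPM with palbociclib (-0.34 ± 0.046, edgeR adjusted p = 2.42e-07). In this cluster the peak at chr17:2011381-2012377 fell by 0.76 on the log2 scale, and the peak nearest to a start of the RNA gene LOC105371486 had a change of -0.08 that was not called. The cluster over CDC20B and GPX8, at chr5:55159709-55189407, had 206, 218 and 209 CPM in DMSO and 166, 182 and 161 CPM with palbociclib (-0.32 ± 0.044, edgeR adjusted p = 3.39e-07). In it, 3 of the 6 peaks were called lower and the peak nearest to GPX8 had a change of -0.21 that was not.

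SHMT2, the mitochondrial enzyme that makes glycine and a folate-bound carbon unit from serine, starts in a cluster with NXPH4 and COXFA4L2 at chr12:57216346-57240902. It had 137, 142 and 133 CPM in DMSO and 115, 109 and 110 CPM with palbociclib (-0.31 ± 0.047, edgeR adjusted p = 2.54e-06). The SHMT2 promoter peak went from 35.3, 37.1 and 33.6 CPM to 26.3, 24.4 and 24.4 CPM. The peak 1725 bases upstream of the start went the other way, from 7.63, 8.72 and 7.96 CPM to 11.1, 9.25 and 11.6 CPM: alone it was not called (adjusted p = 0.0581), but against its cluster it stood 0.69 log2 units above (edgeR diffSpliceDGE adjusted p = 0.000267). SHMT2 RNA was lower too, at 69.8, 72.7 and 76.3 FPKM against 52.0, 54.1 and 51.3 FPKM (limma adjusted p = 3.97e-05). Without the peaks near starts, this cluster's change was -0.20 and was no longer called (edgeR adjusted p = 0.0510).

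Rises were smaller. EDN1 encodes endothelin 1, a peptide that tightens vessels and that some tumour cells secrete; its cluster at chr6:12275133-12298272 went from 137, 142 and 134 CPM to 171, 159 and 159 CPM. The treatments did not overlap (log2 change 0.25 ± 0.045, edgeR adjusted p = 9.07e-05). Both called peaks lay downstream of the gene start, by 5682 and 7074 bases, with changes of 0.37 and 0.54, while the promoter peak itself had 0.13 and was not called. EDN1 RNA rose from 40.5, 38 and 37.6 FPKM to 56.4, 53.9 and 51.1 FPKM (limma adjusted p = 8.54e-05).

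The cluster inside PVT1, a long non-coding RNA gene, rose by 0.26 ± 0.057 on the log2 scale (edgeR adjusted p = 0.00116), from 77.6, 85.2 and 70.0 CPM to 86.8, 96.1 and 97.0 CPM. A cluster inside ITPR1, the calcium channel of the endoplasmic reticulum, and over EGOT, a non-coding gene within it, lay at chr3:4741694-4772774. It went from 121, 138 and 128 CPM to 150, 151 and 145 CPM (0.20 ± 0.047, edgeR adjusted p = 0.00229). Its change came to 0.08 (adjusted p = 0.407) without the called peak 722 bases from the EGOT start, which had risen by 0.42. ANXA6, a membrane-binding annexin, held a cluster at chr5:151107958-151134732 that went from 89.5, 93.9 and 87.8 CPM to 105.1, 99.8 and 111 CPM (0.22 ± 0.051, edgeR adjusted p = 0.00214). The cluster near LOC105379027, an uncharacterised gene, had 48.3, 47.3 and 43.0 CPM in DMSO and 52.8, 56.1 and 53.2 CPM with palbociclib (0.23 ± 0.065, edgeR adjusted p = 0.0149). Its call was lost without DMSO replicate 3 (0.18, adjusted p = 0.137) or palbociclib replicate 2 (0.19, adjusted p = 0.0758).

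**Figure D3:**
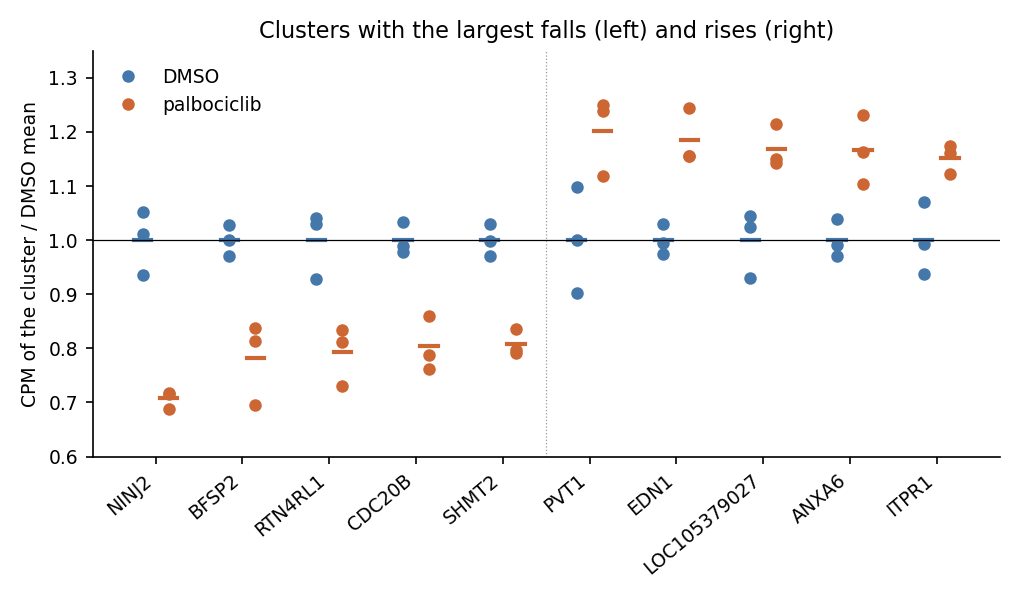
Summed CPM of the 5 clusters with the largest called falls and the 5 with the largest called rises, each divided by its DMSO mean; points are libraries (3 per treatment), bars are group means, and names are genes that the cluster overlaps or lies near. In all 10 clusters the palbociclib libraries lie on one side of the DMSO libraries, which is part of how they were chosen.

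Very long clusters mixed changed and steady peaks. The 14 peaks over HAPLN2, BCAN and NES, at chr1:156616004-156694846, summed to 497, 500 and 515 CPM in DMSO and to 459, 453 and 444 CPM with palbociclib (-0.16 ± 0.036, edgeR adjusted p = 0.00155). At the start of NES, which encodes the filament protein nestin, the peak chr1:156677247-156677596 went from 12.7, 11.7 and 12.5 CPM to 5.27, 5.03 and 6.77 CPM. That log2 change of -1.12 ± 0.15 (edgeR adjusted p = 4.48e-08) was 0.97 below the rest of the cluster. In the same cluster 5 of the 14 peaks had a positive change and none of them was called. The 12 peaks over LAMA5, RPS21 and CABLES2 on chromosome 20 were not called as a whole (-0.09 ± 0.035, edgeR adjusted p = 0.0694), although 5 were lower and 1 higher. That higher peak, at chr20:62358235-62358901 inside the laminin gene LAMA5, had a mean of 75.2 ± 6.46 CPM in DMSO and 99.2 ± 4.51 CPM with palbociclib (SD, n = 3; edgeR log2 change 0.40). The 11 peaks over LTBP3 and EHBP1L1 on chromosome 11 fell by 0.12 ± 0.034 (edgeR adjusted p = 0.0127), and this call was lost without DMSO replicate 1 (adjusted p = 0.0560), DMSO replicate 3 (0.0779) or palbociclib replicate 1 (0.0755), and under the offset smoothed on abundance (0.188).

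The 4 clustered peaks called with a fall of at least 1 on the log2 scale were the one at the NES start, given above, and 3 away from starts. The peak chr11:65911699-65912394, 6668 bases from the start of C11orf68, went from 18.1, 17.0 and 19.5 CPM to 6.92, 6.94 and 5.84 CPM (log2 change -1.46 ± 0.13, edgeR adjusted p = 3.98e-14). It lay in a cluster of 8 and stood 1.32 log2 units below the other peaks of it. The peak chr17:79699422-79699985, 7281 bases from LINC02078, went from 28.7, 35.5 and 31.0 CPM to 13.9, 12.5 and 10.3 CPM (-1.38 ± 0.10, edgeR adjusted p = 4.62e-17). In the gene LOC101929129 on chromosome 15, a weak peak of 7.52 ± 0.966 CPM in DMSO and 3.47 ± 0.699 CPM with palbociclib (SD, n = 3) stood 1.04 log2 units below its cluster.

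The 3 largest rises of single clustered peaks, chosen by size, were on peaks of low count. Of all 88 clustered peaks called higher, 52 were in the highest tercile of mean count, 26 in the middle and 10 in the lowest. Inside TOMM34, a chaperone partner, the peak chr20:44952820-44953148 went from 4.09, 4.88 and 2.96 CPM to 7.91, 6.53 and 9.12 CPM (0.96 ± 0.18, edgeR adjusted p = 9.21e-05). The peak 796 bases from a start of YPEL2 went from 6.84, 10.3 and 8.10 CPM to 13.9, 17.2 and 14.1 CPM (0.82 ± 0.13, edgeR adjusted p = 7.51e-06). Within SLC25A25, a mitochondrial carrier gene, a peak rose from 8.34, 7.08 and 7.54 CPM to 13.1, 12 and 11.2 CPM (0.67 ± 0.14, edgeR adjusted p = 0.000360). In these 3 peaks the treatments did not overlap, and the peaks that held the promoter windows of TOMM34, YPEL2 and SLC25A25 in the same clusters had changes of -0.05, 0.03 and -0.00, none of them called.

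Among genes that start in clusters, the 5 largest RNA falls were of CDCA5, PKMYT1, TOP2A, RNASEH2A and CDC25B, of which TOP2A alone is on the list of replication and mitosis genes. Clusters of PKMYT1, TOP2A and CDC25B were lower, and those of CDCA5 and RNASEH2A were not called. PKMYT1, the kinase that holds CDK1 inactive before mitosis, and its neighbour PAQR4 start in a cluster of 7 peaks at chr16:2961620-3010527. It went from 423, 412 and 425 CPM to 330, 344 and 354 CPM (-0.29 ± 0.037, edgeR adjusted p = 4.47e-08). The peak beside the PAQR4 start went from 60.0, 58.8 and 66.9 CPM to 36.5, 36.2 and 34.8 CPM, and the PKMYT1 promoter peak from 64.4, 57.2 and 58.8 CPM to 35.5, 38.4 and 39.4 CPM. Those 2 stood 0.50 and 0.38 log2 units below the cluster, while its strongest peak, at chr16:3003657-3004269, changed by -0.07 and was not called. PKMYT1 RNA fell from 42.0, 46.9 and 44.2 FPKM to 3.93, 3.29 and 2.92 FPKM, a change of -3.38 on the log2(FPKM + 1) scale (limma adjusted p = 1.09e-08). PAQR4 RNA fell by 0.75 on the same scale.

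TOP2A shares its cluster, at chr17:40417495-40449231, with the start of IGFBP4, an oestrogen receptor target that encodes a binding protein of insulin-like growth factors. The cluster went from 376, 377 and 392 CPM to 316, 340 and 306 CPM (-0.25 ± 0.039, edgeR adjusted p = 3.72e-06). The TOP2A promoter peak, printed in part above, went from 179, 172 and 186 CPM to 139, 148 and 139 CPM, and the peak inside IGFBP4 from 116, 122 and 118 CPM to 102, 115 and 90.5 CPM. RNA of the neighbours moved in opposite directions. TOP2A fell from 174, 169 and 170 FPKM to 17.1, 15.8 and 16.0 FPKM (limma adjusted p = 3.90e-10), and IGFBP4 rose from 342, 339 and 358 FPKM to 434, 403 and 384 FPKM (limma adjusted p = 0.00435).

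CDC25B gave a fall of its promoter peak alone. The peak went from 104, 101 and 114 CPM to 65.0, 61.2 and 64.2 CPM (-0.74 ± 0.057, edgeR adjusted p = 2.51e-16), and the other 4 peaks of the cluster changed by between -0.19 and 0.14 with none called. The cluster as a whole, with SPEF1 and the centromere protein gene CENPB, changed by -0.27 (edgeR adjusted p = 1.52e-06). CDC25B RNA fell from 40.8, 41.7 and 40.7 FPKM to 8.80, 8.48 and 8.95 FPKM. In the E2F2 cluster likewise only the promoter peak was called, going from 39.6, 41.3 and 44.2 CPM to 30.1, 29.0 and 29.5 CPM (-0.50 ± 0.076, edgeR adjusted p = 1.85e-06). E2F2 RNA fell from 4.30, 4.25 and 4.27 FPKM to 0.310, 0.305 and 0.435 FPKM. The whole cluster's change of -0.14 (edgeR adjusted p = 0.0121) was not called without DMSO replicate 2 (0.0600) or palbociclib replicate 2 (0.0789), without the peaks near starts (0.0507) or under the offset smoothed on abundance (0.105).

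CDCA5 and RNASEH2A had lower promoter peaks inside clusters that were not called. The CDCA5 promoter peak, which also covers the start of ZFPL1, went from 77.8, 72.0 and 78.4 CPM to 64.4, 66.8 and 62.4 CPM, and CDCA5 RNA from 51.9, 51.9 and 50.7 FPKM to 3.81, 3.85 and 3.49 FPKM. ZFPL1 RNA had a change of 0.04 and was not called. The RNASEH2A promoter peak had a mean of 30.9 ± 1.28 CPM in DMSO and 24.3 ± 2.79 CPM with palbociclib (SD, n = 3; edgeR adjusted p = 0.00417). Its RNA fell from 50.6, 49.5 and 46.6 FPKM to 8.59, 9.23 and 8.15 FPKM. The call of the RNASEH2A peak was lost without palbociclib replicate 3 (edgeR adjusted p = 0.0511).

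**Figure D4:**
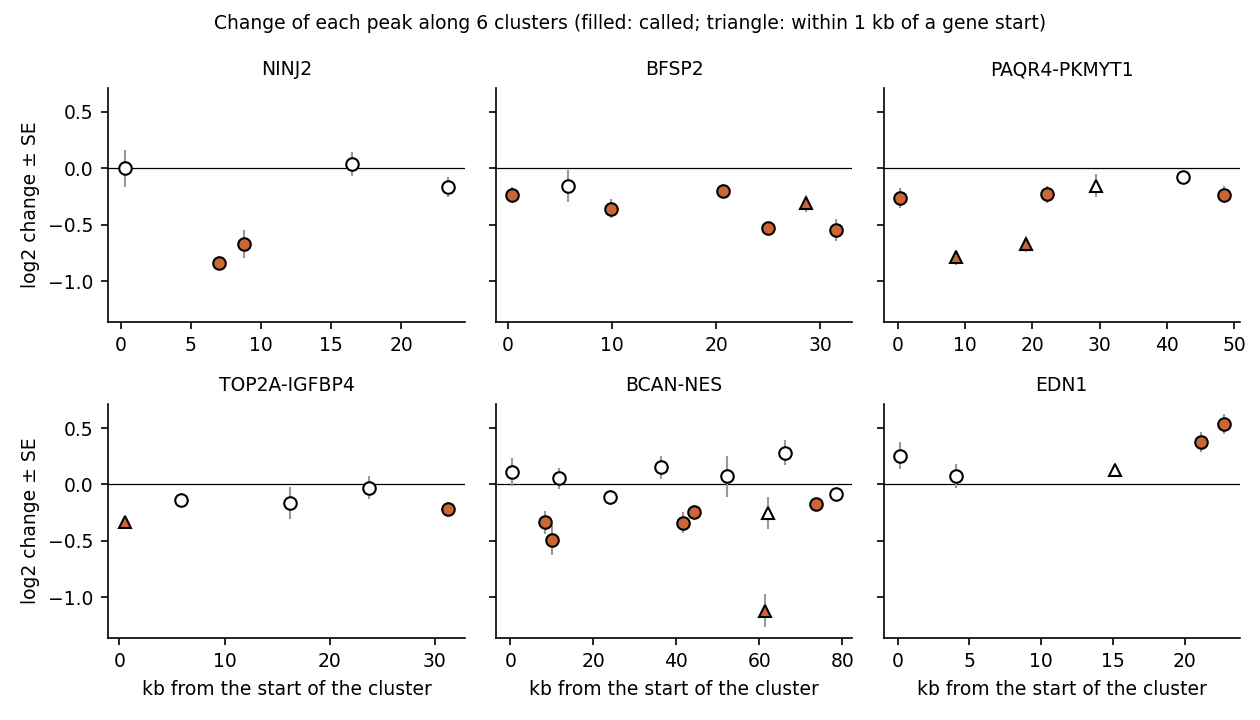
Log2 change with palbociclib (± SE, edgeR) of each peak against its distance from the start of the cluster, for 6 clusters; filled symbols are peaks called at an adjusted p under 0.05 and triangles are peaks within 1 kb of a gene start. In BFSP2 6 of 7 peaks are called lower, in NINJ2 the fall sits in 2 adjacent peaks, and in the EDN1 cluster both called peaks lie beyond the gene start.

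Some genes of the luminal, epithelial and early response lists start in clusters. Of all 29756 genes with a listed start 1.81% do, and of the 13004 of these with an RNA test 3.01%. Of 17 luminal factor genes with a listed start, SPDEF and GRHL2 start in clusters, and of 13 epithelial genes, CDH1, KRT8 and CLDN4 do. Of 18 oestrogen receptor targets with a listed start it was IGFBP4 and RET, of 14 AP-1 and early genes FOS, FOSB and JUNB, and of 26 replication and mitosis genes TOP2A and E2F2. Of 9 cyclin D, CDK and inhibitor genes with a listed start none did. Clusters of both replication and mitosis genes were lower. CLDN4, a tight junction claudin, was in a lower cluster too (-0.15 ± 0.037, edgeR adjusted p = 0.00308; 0.0502 without DMSO replicate 3). There the called change was strongest inside the neighbouring gene METTL27, at chr7:73838517-73839009, from 31.3, 23.4 and 26.6 CPM to 15.1, 17.5 and 14 CPM. The peak 902 bases from the CLDN4 start was called lower too (-0.24 ± 0.051, edgeR adjusted p = 0.000557). So was the peak 5015 bases from the start of TMEM270 (-0.27 ± 0.060, edgeR adjusted p = 0.0012). CLDN4 RNA rose by 0.25 on the log2(FPKM + 1) scale (limma adjusted p = 0.01). FOSB, an AP-1 subunit, starts in a lower cluster with ERCC1 and RTN2 (-0.14 ± 0.038, edgeR adjusted p = 0.00720; 0.0576 without DMSO replicate 3). In the FOSB cluster the called peaks lay inside ERCC1 and RTN2. The peak at the FOSB start changed by -0.07 and was not called (edgeR adjusted p = 0.707), and FOSB had no RNA test. Clusters of SPDEF (-0.09), GRHL2 (-0.05), CDH1 (-0.09), KRT8 (-0.03), RET (0.03), JUNB (-0.10) and FOS (-0.02) were not called. The medians over clusters of a list rest on 2 or 3 clusters each and are not given.

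RNA of genes that start in clusters leaned up, opposite to the ATAC signal. Of 540 genes with a listed start in a cluster, 392 passed the mean of 0.5 FPKM, and 138 (35.2%) were higher and 66 (16.8%) lower with palbociclib by limma on log2(FPKM + 1). Over all 15869 tested genes 20.9% were higher and 22.9% lower, and over the 13004 with a listed start anywhere 22.1% were higher and 25.3% lower. The median change was 0.09 for genes starting in clusters and -0.004 for all tested genes with a listed start. Quantile normalization moved higher calls from 67.6% to 77.1% of calls for genes starting in clusters, and from 47.7% to 61.6% for all tested genes. Where the cluster was lower, 28 of 126 genes were higher and 33 lower, near the shares for all genes. Where it was not called, 106 of 262 were higher and 33 lower. All 4 tested genes of higher clusters rose, among them PPM1J, a phosphatase, NDST1, a heparan sulphate enzyme, and EDN1. No test of this difference between sets of genes was made, and ATAC and RNA came from separate samples.

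The rises with the largest RNA change included genes in clusters of every kind. CLU, the secreted chaperone clusterin, went from 859, 776 and 713 FPKM to 1710, 1580 and 1365 FPKM, in a cluster with a change of 0.02 that was not called. PPM1J went from 18.0, 16.5 and 16.5 FPKM to 34.7, 33.5 and 27.5 FPKM (limma adjusted p = 6.55e-05), and its cluster rose by 0.12 ± 0.039 (edgeR adjusted p = 0.0252). TMC4, a channel-like membrane protein gene, went from 20.5, 23.4 and 20.2 FPKM to 37.2, 41.1 and 39.0 FPKM, and its cluster changed by -0.02. SRARP, which encodes a steroid receptor binding protein, went from 2.11, 2.10 and 2.00 FPKM to 4.04, 4.22 and 4.07 FPKM in a cluster with a change of -0.01. ADM rose from 20.1, 19.0 and 19.5 FPKM to 33.0, 33.3 and 31.1 FPKM (limma adjusted p = 3.65e-06) while its cluster fell by 0.15 (edgeR adjusted p = 0.0120). The ADM promoter peak went from 59.9, 62.5 and 60.0 CPM to 54.9, 51.8 and 52.2 CPM, without overlap.

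**Figure D5:**
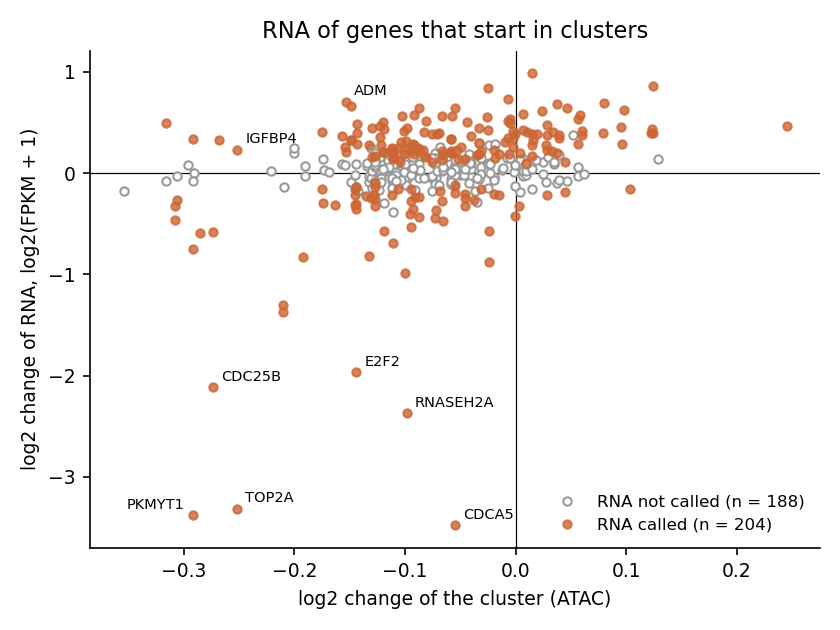
Change of RNA on the log2(FPKM + 1) scale against the log2 change of the cluster in which the gene starts, for 392 genes; orange points are genes called by limma (204) and open points are not called (188). CDCA5, PKMYT1, TOP2A, CDC25B, RNASEH2A and E2F2, labelled, lie below 0 in RNA at cluster changes between -0.29 and -0.06, and ADM and IGFBP4 lie above 0 in RNA beside lower clusters.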

How the data were processed

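ATAC values are raw counts per peak deposited by the authors, made with featureCounts 2.0.6 on deduplicated alignments over a single peak set, per the file headers. No option to count read pairs appears there, so counts were taken as reads. The submitters' processing notes name Bowtie2, MACS3 and build GRCh38; which libraries the peaks were called on is not given in the sources used here. RNA values are FPKM deposited by the authors. Splicing tables deposited by the authors gave only the strand of 2451 genes beside their other values, such as form lengths, which were not used; 27305 genes had starts in the RefSeq promoter table (GRCh38.p14). Genes with no listed start, and on chromosome 8 those without a strand in the splicing tables, count as having none, so clusters without a start may hold some.

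Counts per peak and summed per chain were tested with edgeR 4.0.16 (TMM, quasi-likelihood; filterByExpr removed 0 peaks), peaks against their chain with diffSpliceDGE, and RNA with limma 3.58.1 on log2(FPKM + 1) at a mean FPKM of at least 0.5, in R 4.3.3, each over the whole table with Benjamini-Hochberg adjustment. CPM are TMM-scaled. The fits were also run on simulated data with known changes, and the outcome is not given here. Features were drawn independently with a fixed spread, so shifts with abundance and peaks that vary together were not covered. The members, gene lists and rules were chosen with earlier results of these data known. Named were the 5 clusters and 3 peaks each way with the largest called changes without overlap (means of at least 200 and 50 counts), the 3 clusters with most peaks, clusters of listed genes, the 3 peaks furthest from their cluster each way, and 5 RNA changes each way. Motifs CHR and CCAAT were added after the data were seen. Sequences of peaks without a RefSeq promoter window were not analysed here. ATAC replicates are labelled biological, RNA replicates only by number, and no batch is given.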

Additional observations from a re-analysis of the deposited data

How the results depend on the processing

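The labels do not say that replicate numbers pair the libraries, and 3 numbers per treatment are too few to settle it. Same-numbered ATAC libraries deviated from their group means with correlations of 0.0052, 0.039 and -0.025, and RNA libraries with 0.106, -0.0051 and 0.088. In ATAC 3 of 6 and in RNA 4 of 6 libraries correlated best with their own number. The main fits treated libraries as unpaired. With a replicate block, clusters called higher were 7 and lower 66, with other counts within 1.5 times of those reported.

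Clustered peaks called higher and lower were 49 and 172 with DESeq2, 3 and 25 at a gap of 5000 bases, 375 and 933 at 25000 bases, and 4 and 21 in chains of 10 or more; each replicate left out gave 51 to 97 and 178 to 235. Clusters higher and lower were 24 and 65 with library totals, 39 and 42 with the offset smoothed on chain abundance, 22 and 70 with that smoothed on peak abundance (chosen after seeing the data), 1 and 7 at 5000 bases, 30 and 295 at 25000 bases, and 0 and 3 in chains of 10 or more; each replicate left out gave 7 to 15 and 42 to 75. Peaks above and below their cluster were 1 and 4, 306 and 292, and 2 and 4 under the same gaps and minimum, and 23 to 49 and 32 to 69 with a replicate left out. RNA higher and lower were 236 and 124 for starts within 25000 bases of a cluster, 10 and 2 at a gap of 5000, 621 and 368 at 25000, and 3 and 4 for chains of 10 or more; each replicate left out gave 118 to 139 and 57 to 64. A changed gap or minimum changes how many peaks are members (160 at 5000 bases, 8695 at 25000). For the other shifts the cause was not tested. Shares over all peaks, chains or genes are not given for these runs, so their counts are not set against a background.

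The difference between clustered and other peaks and the share of counts kept their sign in every alternative run, at -0.05 to -0.07 and -0.173 to -0.252 with a replicate left out. Of 312 values of named clusters under alternatives 15 lost their call, of 372 of named peaks 20 lost and 2 gained it, and of 100 of named RNA changes none did; none of these reversed. The 3 replicates per treatment set the smallest exact p at 0.1.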
